A study of Homo sapiens with 4 samples.

Results

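The genes examined here make cholesterol, sense it and move it, together with a pair of fatty acid enzymes under the same control. They were picked by name from a list of 30 symbols, and each symbol had 1 row among the 58229 genes of the table. RNA had been sequenced from CD31+ cells taken on day 8 of a hematopoietic differentiation of H1, a widely used human embryonic stem cell line. CD31, the product of PECAM1, is carried on the surface of endothelium and of early blood cells. The groups were HAND1_OE (2 libraries), from H1 made to overexpress the transcription factor HAND1, and Control (2 libraries), from H1 without it. All libraries shared the line, the differentiation with activin A and BMP4 followed by VEGF and bFGF, and the collection of CD31+ cells. The labels do not say how HAND1 was delivered, whether the line was 1 clone, or whether libraries of a group came from separate cultures, so p-values measure the spread between these libraries, which may be technical.

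Cells build cholesterol from acetyl-CoA through mevalonate, the isoprenoid farnesyl diphosphate, squalene and lanosterol, and then trim lanosterol to cholesterol. When membrane sterol is low, SCAP escorts the SREBP factors (encoded by SREBF1 and SREBF2) from the endoplasmic reticulum to be cleaved, and they switch on the synthesis enzymes, while INSIG proteins hold the complex back when sterol is ample. Oxysterols that build up when sterol is in excess activate the liver X receptors (LXR), which raise the efflux pumps ABCA1 and ABCG1 and the ubiquitin ligase MYLIP. The SREBP-driven and LXR-type genes therefore often move in opposite directions. In blood-forming endothelium the sterol content of the membrane is known to influence signaling and the emergence of blood progenitors.

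Values are FPKM, fragment counts scaled to transcript length and sequencing depth, so levels can be set against each other between genes. Fold changes are differences of log2(FPKM + 1), HAND1_OE minus Control, which understate the change of low genes. HAND1 itself was at 12.1 and 14.3 FPKM in Control, against 520 and 517 FPKM in HAND1_OE (log2 fold change 5.20, limma adjusted p = 0.00145). The endothelial markers PECAM1, CDH5, TEK, KDR, EMCN, ESAM and TIE1 summed to 1207 to 1350 FPKM in Control and 1225 to 1363 FPKM in HAND1_OE. Of the 7, 5 had a higher and 2 a lower mean log2 level in HAND1_OE, and 0 were called in either direction. EMCN was at 22.8 and 34.2 FPKM in Control, against 58.5 and 88.3 FPKM in HAND1_OE. Its log2 fold change was 1.33 (limma adjusted p = 0.0688, unadjusted p under 0.05). Blood cell markers moved with the groups: all 8 red blood cell markers were called lower, against 2.11% of all genes tested. Their summed level was 405 to 660 FPKM in Control and 19.5 to 23.5 FPKM in HAND1_OE. Of the 5 pan-hematopoietic markers tested, 4 were called lower (SPN, RUNX1, MYB and SPI1), and TAL1 was lower without a call. In bulk RNA, fewer cells of a type and less RNA per cell cannot be told apart. The part that this difference in blood cell RNA has in the values below was not tested.

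None of the cholesterol and sterol genes differed between the groups by the test used. At an adjusted p under 0.05 in limma, 0 of the 30 members were called higher and 0 lower. Of the 14622 genes tested 4.16% were called (608 genes), 2.04% higher and 2.11% lower. All 30 passed the filter on low values, each in all 4 libraries. At an unadjusted limma p under 0.05 there were 2 members, SC5D and ACAT2, both higher in HAND1_OE, which is 6.67% of the members against 17.4% of all genes (6.82% higher and 10.6% lower). In 13 members the libraries of the groups did not overlap (43.3%), against 46.3% of all genes. The HAND1_OE libraries lay above in 9 of these (30% of members, 16.2% of all genes) and below in 4 (13.3%, 30.1% of all genes).

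**Figure D1:**
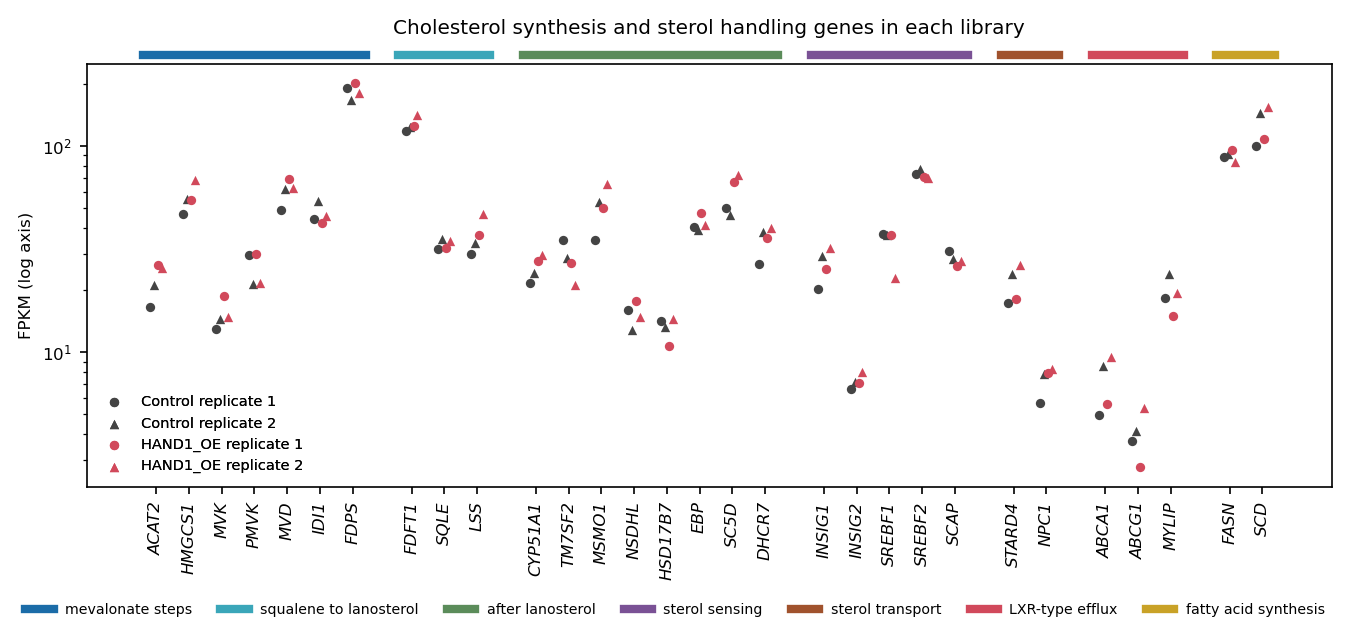
FPKM (log axis) of each of the 30 genes in the 4 libraries, grouped by role; dark symbols are Control, red symbols HAND1_OE, circles replicate 1 and triangles replicate 2. FDPS is highest in every library and ABCG1 lowest, and for most genes the symbols of both groups lie among each other.

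The intervals around these differences were narrow enough to bound them. For 29 of the 30 members the 95% interval of the limma fit lay within a 2-fold change on this scale in either direction, and for 9 it lay within a 1.5-fold change. The exception was MSMO1, whose upper bound was 1.02. The lowest bound was that of SREBF1, at -0.94. A member would have had to differ by 0.74 (SREBF2) to 1.75 (ABCA1) to be called at its own spread, so differences smaller than that cannot be told from none by this test. An exact two-sided permutation test of a single gene, 2 libraries against 2, cannot give a p below 0.333.

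**Figure D2:**
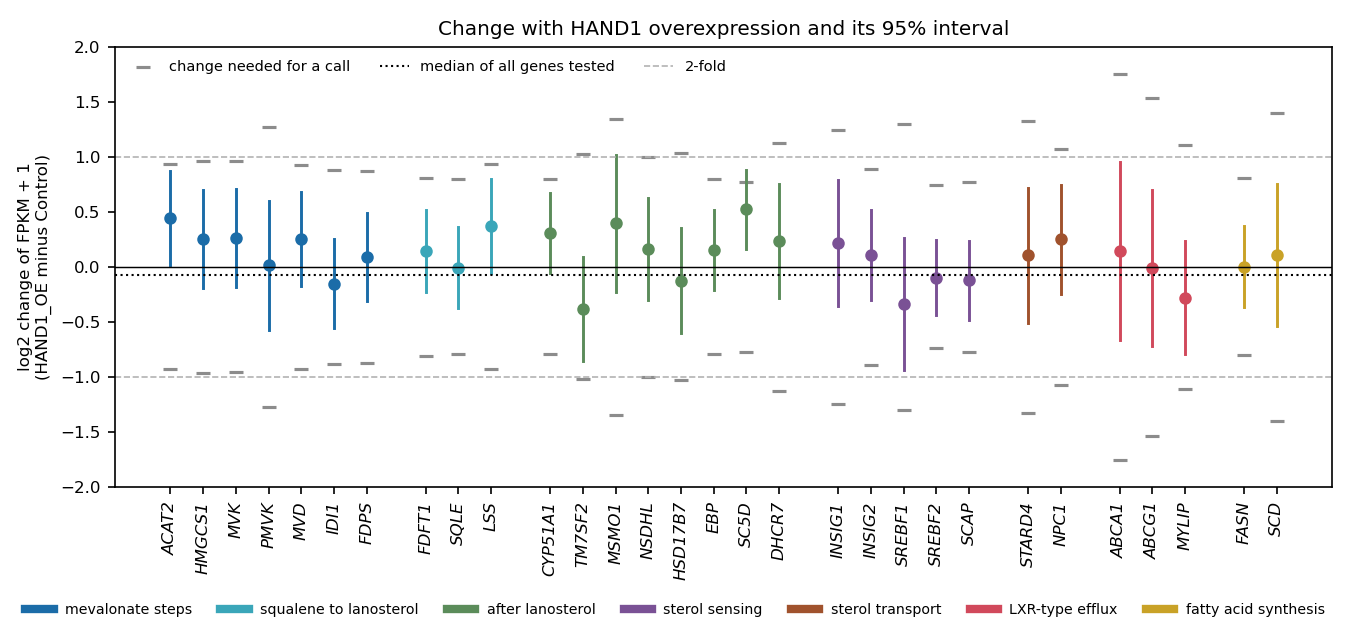
Log2 fold change (points) with its 95% interval (lines) for each gene, colored by role; grey ticks mark the change each gene would have needed for a call, the dashed lines a 2-fold change and the dotted line the median of all genes tested, -0.078. SC5D has the highest point at 0.52 and TM7SF2 the lowest at -0.39, and no point reaches its grey tick.

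Among the mevalonate enzymes, which lead from acetyl-CoA to farnesyl diphosphate, 6 of 7 had a higher mean log2 level in HAND1_OE, with a median log2 fold change of 0.25. ACAT2, the cytosolic acetoacetyl-CoA thiolase that starts the pathway (ENSG00000120437.8, GRCh38 chromosome 6, 159760328 to 159779055), was at 16.6 and 21.2 FPKM in Control, against 26.5 and 25.5 FPKM in HAND1_OE. Its HAND1_OE libraries lay above both Control libraries, with a log2 fold change of 0.45 (standard error 0.173, limma adjusted p = 0.268). ACAT2 shares exonic bases with TCP1 on the opposite strand, which was at 82.9 FPKM on average. Since strand use in counting is not given, the division of reads between them is uncertain. HMGCS1, the synthase that makes HMG-CoA, was at 46.7 and 55.1 FPKM in Control, against 54.3 and 67.9 FPKM in HAND1_OE, so the groups overlapped. The kinase MVK was at 12.9 and 14.5 FPKM in Control, against 18.7 and 14.8 FPKM in HAND1_OE, the nearest libraries of the groups being almost level. The decarboxylase MVD was at 49.1 and 61.7 FPKM in Control, against 69.4 and 62.4 FPKM in HAND1_OE, again with a small gap.

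The second kinase, PMVK, was at 29.7 and 21.3 FPKM in Control, against 29.9 and 21.6 FPKM in HAND1_OE. Its libraries differed within each group by 0.45 to 0.46 on the log2 scale while the group means differed by 0.01. IDI1, the isopentenyl diphosphate isomerase, was the mevalonate gene with a lower mean in HAND1_OE (49.1 ± 7.06 FPKM in Control, against 43.9 ± 2.50 FPKM in HAND1_OE, SD, n = 2). FDPS, farnesyl diphosphate synthase, stands where the sterol pathway parts from protein prenylation and was the most abundant member, at 191, 166, 202 and 179 FPKM in the libraries from Control replicate 1 to HAND1_OE replicate 2. It made up 19.1% to 23.7% of the summed FPKM of the 18 synthesis enzymes. FDPS has 8 pseudogene rows in the table, of which 0 reached 1 FPKM in a library and the highest was at 0.040 FPKM on average. CYP51A1, a later enzyme, has 3, of which 1 reached 1 FPKM in a library, the highest being CYP51A1P2 at 0.685 FPKM on average. How reads were divided between these genes and their copies is uncertain.

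Squalene is made and folded into lanosterol by FDFT1, SQLE and LSS. FDFT1, squalene synthase, was at 117 and 123 FPKM in Control, against 124 and 142 FPKM in HAND1_OE. SQLE, the oxygen-dependent epoxidase, was at 31.5 and 35.2 FPKM in Control, against 31.9 and 34.4 FPKM in HAND1_OE, with a 95% interval of the log2 fold change from -0.37 to 0.36. LSS, lanosterol synthase (ENSG00000160285.14, chromosome 21, 46188141 to 46228824), was at 30.03 and 34.0 FPKM in Control, against 37.2 and 46.5 FPKM in HAND1_OE. Both HAND1_OE libraries of LSS were above both Control libraries, and its log2 fold change was 0.37 (standard error 0.173, limma adjusted p = 0.366).

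The steps after lanosterol held both the highest and the lowest change of the whole list. SC5D, the sterol desaturase near the end of the pathway (ENSG00000109929.9, chromosome 11, 121292453 to 121308694), was at 50.2 and 46.2 FPKM in Control, against 67.0 and 72.2 FPKM in HAND1_OE. The groups lay further apart than the libraries within either, with a log2 fold change of 0.52 (95% interval 0.17 to 0.88) and a limma adjusted p = 0.137. Over the other settings its adjusted p ran from 0.0518 to 0.505. CYP51A1, which removes the first methyl group from lanosterol, was at 21.7 and 24.1 FPKM in Control, against 27.5 and 29.6 FPKM in HAND1_OE (log2 fold change 0.31, standard error 0.148, adjusted p = 0.378).

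TM7SF2, a sterol reductase of the step after CYP51A1 (ENSG00000149809.14, chromosome 11, 65111845 to 65116384), was at 35.0 and 28.6 FPKM in Control, against 27.0 and 21.2 FPKM in HAND1_OE. Here the HAND1_OE libraries were both below the Control libraries, and the log2 fold change was -0.39 (95% interval -0.86 to 0.085, adjusted p = 0.387). TM7SF2 shares exonic bases with VPS51 on the same strand, which was at 82.4 FPKM on average, so the division of reads between them is uncertain. The same reaction can be carried out by LBR, the lamin B receptor, which was taken up beside TM7SF2 after its values were seen and was at 21.0 and 21.4 FPKM in Control, against 23.0 and 25.5 FPKM in HAND1_OE. The ratio of TM7SF2 to LBR was 1.67 and 1.34 in Control and 1.18 and 0.834 in HAND1_OE. HAND1_OE libraries lay below Control for TM7SF2 and above Control for LBR, so the ratios could not overlap between the groups and add nothing to these values. Of all genes tested, 46.3% had groups that did not overlap. Neither TM7SF2 nor LBR was called.

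The demethylation enzymes MSMO1, NSDHL and HSD17B7 work as a complex. MSMO1, a methylsterol oxidase (chromosome 4, 165327623 to 165343160), was at 34.8 and 53.3 FPKM in Control, against 50.1 and 64.9 FPKM in HAND1_OE, so that Control replicate 2 was above HAND1_OE replicate 1 (log2 fold change 0.40, 95% interval -0.23 to 1.02). The dehydrogenase NSDHL was at 16.0 and 12.8 FPKM in Control, against 17.8 and 14.7 FPKM in HAND1_OE. HSD17B7, the ketosteroid reductase of the complex, was at 14.2 and 13.2 FPKM in Control, against 10.7 and 14.5 FPKM in HAND1_OE. Of the remaining enzymes, the isomerase EBP was at 39.7 ± 0.719 FPKM in Control, against 44.3 ± 4.29 FPKM in HAND1_OE. The reductase DHCR7, which finishes the pathway, was at 32.5 ± 8.33 and 37.9 ± 2.77 FPKM (SD, n = 2), with Control replicate 1 alone low at 26.6 FPKM.

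Over all 18 synthesis enzymes, 14 had a higher mean log2 level in HAND1_OE and 4 a lower one, and the median log2 fold change was 0.20. Of all genes tested 38.7% had a higher one and the median was -0.078. The groups were separate with HAND1_OE above in 8 of the 18 (44.4%, against 16.2% of all genes) and with HAND1_OE below in 1, TM7SF2 (5.56%, against 30.1%), with 0 of 18 called. The median stayed between 0.14 and 0.28 in each setting tried. The summed level of the enzymes was 808 and 842 FPKM in Control, against 919 and 938 FPKM in HAND1_OE, a ratio of means of 1.13. Without FDPS and FDFT1 it was 499, 553, 593 and 617 FPKM in the same order, so the direction of the FPKM sums did not rest on these abundant enzymes. As a share of all FPKM of a library the enzymes made up 0.133% and 0.157% in Control and 0.159% and 0.172% in HAND1_OE. On this scale Control replicate 2 and HAND1_OE replicate 1 were almost level. Without FDPS and FDFT1 the shares were 0.0823% and 0.1031% in Control and 0.1025% and 0.1131% in HAND1_OE, so the groups overlapped. Because the list was chosen with earlier results of these data known, no test was made of its sum or median. Of the proliferation markers, 3 of 7 had a higher mean log2 level in HAND1_OE and 0 were called (2, PCNA and MCM2, were lower at an unadjusted limma p under 0.05), and their summed level was 171 and 161 FPKM in Control, against 164 and 135 FPKM in HAND1_OE.

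Of the 5 sensing genes 2 had a higher and 3 a lower mean log2 level in HAND1_OE, with a median log2 fold change of -0.10 and 0 called. SREBF2, whose product drives cholesterol synthesis (chromosome 22, 41833079 to 41907308), was at 73.1 and 77.1 FPKM in Control, against 70.5 and 69.4 FPKM in HAND1_OE. Its log2 fold change was -0.10, with the 95% interval from -0.44 to 0.24. SREBF1, whose product leans toward fatty acid genes, was at 37.3 and 37.1 FPKM in Control, against 37.0 and 23.0 FPKM in HAND1_OE. Its lower mean in HAND1_OE (log2 fold change -0.34, adjusted p = 0.569) came from replicate 2 alone, and without that library it was -0.0056. SREBF2 exceeded SREBF1 1.96, 2.08 and 1.90 times in the first 3 of these libraries and 3.02 times in HAND1_OE replicate 2.

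The escort protein SCAP was at 30.8 and 28.3 FPKM in Control, against 26.3 and 27.8 FPKM in HAND1_OE. INSIG1, itself a sensitive SREBP target, was at 20.1 and 29.2 FPKM in Control, against 25.2 and 32.1 FPKM in HAND1_OE, with more spread within the groups than between their means. INSIG2, which is less bound to SREBP, was lower and more even at 6.64 and 7.15 FPKM in Control, against 7.05 and 7.97 FPKM in HAND1_OE. INSIG1 exceeded INSIG2 between 3.03 and 4.09 times in the 4 libraries.

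Of the 3 LXR-type genes 1 had a higher and 2 a lower mean log2 level in HAND1_OE, and 0 were called. ABCA1, which loads cholesterol onto apolipoproteins (ENSG00000165029.15, chromosome 9, 104781002 to 104928237), was at 4.94 and 8.59 FPKM in Control, against 5.63 and 9.47 FPKM in HAND1_OE. Libraries of a group differed by 0.69 and 0.66 on the log2 scale, while the groups differed by 0.14 (95% interval -0.67 to 0.95). ABCG1, which passes cholesterol to lipoprotein particles and was the lowest member, was at 3.71 and 4.17 FPKM in Control, against 2.77 and 5.36 FPKM in HAND1_OE, the HAND1_OE libraries lying on either side of Control. MYLIP, a ligase that marks lipoprotein receptors for degradation, was at 18.2 and 23.8 FPKM in Control, against 15.0 and 19.3 FPKM in HAND1_OE (log2 fold change -0.28, adjusted p = 0.582).

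In all 3 of these genes the groups overlapped, and their median log2 fold change was -0.01. Leaving out replicate 1 or 2 of HAND1_OE made that median 0.37 or -0.39, and leaving out replicate 1 or 2 of Control made it -0.20 or 0.055, so its sign rested on single libraries. Quantile normalization also turned it, to 0.099, and median-ratio scaling to 0.053. The synthesis enzymes and the LXR-type genes were therefore set side by side as 0.20 and -0.01, and whether they differ was not tested. The receptor genes NR1H2 and NR1H3, which encode the LXRs, were not called (log2 fold changes -0.21 and 0.16). Macrophages are known for high ABCA1 and ABCG1. Of the 7 macrophage and myeloid markers 4 passed the filter and 3 were called lower, against 2.11% of all genes tested. The summed level of the 7 was 61.5 to 81.8 FPKM in Control and 7.80 to 10.5 FPKM in HAND1_OE. The part of this in the ABCA1 and ABCG1 values was not tested. The macrophage receptor CSF1R was at 1.71 and 0.853 FPKM in Control, against 0.388 and 0.292 FPKM in HAND1_OE, and CD14 was between 0.223 and 0.676 FPKM in the 4 libraries. Neither passed the filter, nor did MPO, a granule enzyme of granulocytes, which was at 0.0769 FPKM or below.

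Sterol transport and fatty acid synthesis added 4 genes, and 0 of these were called. STARD4, a carrier of sterol between membranes, was at 17.4 and 23.8 FPKM in Control, against 18.1 and 26.5 FPKM in HAND1_OE. NPC1, which lets cholesterol out of lysosomes, was at 5.64 and 7.85 FPKM in Control, against 7.94 and 8.30 FPKM in HAND1_OE, the nearest libraries of the groups being almost level. FASN, the fatty acid synthase, was nearly level at 89.3 ± 2.08 FPKM in Control, against 89.6 ± 8.87 FPKM in HAND1_OE (SD, n = 2). The desaturase SCD was at 99.5 and 144 FPKM in Control, against 108 and 155 FPKM in HAND1_OE, again with more spread within the groups than between them.

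The difference between libraries of a group was also set against that between the groups. In 17 of the 30 members (56.7%, against 53.7% of all genes) the mean difference within the groups exceeded that between the group means. With 2 libraries per group this happens exactly where the groups overlap, so it restates the overlap counts above, and the shares are near each other. Replicate 2 was above replicate 1 in both groups for 16 members (53.3%), against 33.3% of all genes tested. It was below in both for 6 members (20%), against 36.8% of all genes tested. The labels do not say whether a number stands for a shared culture or day. PMVK, TM7SF2 and NSDHL were lower in replicate 2 by more than 0.25 on the log2 scale in both groups (10% of members, against 11.6% of all genes tested). ABCA1, SCD, STARD4, MSMO1, INSIG1 and MYLIP were higher there by more than 0.3 in both groups (20%, against 8.49%). AFP, a marker of hepatocytes and visceral endoderm, which make and export much cholesterol, ran the same way at 53.7 and 100.5 FPKM in Control, against 61.5 and 230.5 FPKM in HAND1_OE. The summed level of the 5 markers of that list was 153 and 308 FPKM in Control, against 155 and 605 FPKM in HAND1_OE, with ALB under 1 FPKM throughout. Its part in the values of these members was not tested.

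**Figure D3:**
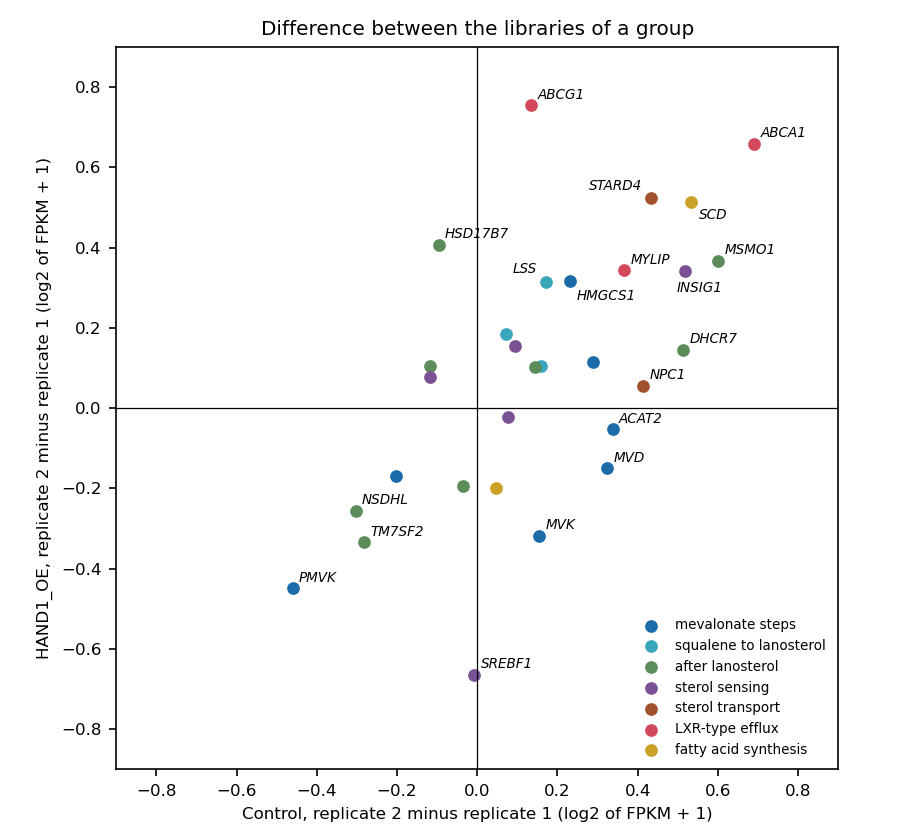
Each point is 1 gene: on the x axis its replicate 2 minus replicate 1 difference in Control, on the y axis the same difference in HAND1_OE, both in log2(FPKM + 1). ABCA1 sits at 0.69 and 0.66 and PMVK at -0.46 and -0.45, while SREBF1 differs between replicates in HAND1_OE alone.

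The promoters of the members were read for short motifs, since SREBP acts there beside the factors NF-Y and SP1. RefSeq windows of GRCh38.p14, from 250 bases before to 50 after a start site, matched 25 of the 30 members (31 windows). The CCAAT box (CCAAT), which NF-Y binds, lay on either strand in 18 of the 25 members (72%), in 64.5% of their windows and in 34.6% of all 35114 windows. The GC box (GGGCGG), which SP1 binds, lay in 24 of the 25 members, in 93.5% of their windows and in 45.0% of all windows. The palindromic E-box (CACGTG) lay in 5 of the 25 members (20%), in 19.4% of their windows and in 7.26% of all windows. The E-box CATCTG, a HAND-type site, lay in 2 members (CYP51A1 and LSS, 8%), in 6.45% of member windows and in 14.7% of all windows. The core of the sterol regulatory element (TCACNCCAC) matched in 1 of the 25 members, SREBF2, as TCACCCCAC with its first base at position -133. That was 3.23% of member windows, against 1.13% of all windows. The LXR direct repeat with a spacing of 4 bases matched in 0 of the member windows and 0.057% of all windows. Both strands were searched, and none of these motifs contains another. Only exact matches to these patterns were counted, so sites that differ by a base, or that lie outside the windows, were missed.

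Shown next are stretches of the promoters of 4 of the members that were higher in replicate 2 of both groups, 3 SREBP-type genes and 1 efflux gene, each on its own strand and up to the first base that GENCODE 29 places in an exon. Capitals mark the CCAAT box on either strand and, in ABCA1, the E-box CACGTG.
MSMO1 (chr4:165327419-165327622, plus strand): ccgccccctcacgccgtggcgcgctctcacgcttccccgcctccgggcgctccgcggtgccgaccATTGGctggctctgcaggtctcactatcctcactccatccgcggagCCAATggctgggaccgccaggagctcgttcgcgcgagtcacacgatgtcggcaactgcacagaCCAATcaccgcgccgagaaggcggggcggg
STARD4 (chr5:111512591-111512785, minus strand): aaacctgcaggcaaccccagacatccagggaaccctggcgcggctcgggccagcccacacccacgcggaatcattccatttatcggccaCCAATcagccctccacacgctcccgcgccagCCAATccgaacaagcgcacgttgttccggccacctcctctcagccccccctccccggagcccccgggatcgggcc
SCD (chr10:100346983-100347123, plus strand): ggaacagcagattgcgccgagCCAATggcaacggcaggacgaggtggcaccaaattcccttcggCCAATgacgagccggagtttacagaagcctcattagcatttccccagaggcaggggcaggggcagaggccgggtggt
ABCA1 (chr9:104928238-104928405, minus strand): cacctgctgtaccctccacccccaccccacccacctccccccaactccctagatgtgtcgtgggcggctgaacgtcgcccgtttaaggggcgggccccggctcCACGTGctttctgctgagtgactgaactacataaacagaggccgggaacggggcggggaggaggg
The marked boxes number 3 in MSMO1 and 2 each in STARD4 and SCD, and this stretch of ABCA1 holds 1 E-box and no CCAAT box. MYLIP, an LXR-type gene also higher in replicate 2 of both groups but not shown, has 2 CCAAT boxes in its stretch. INSIG1, likewise not shown, has 1, and its window holds CACGTG with its first base at position -55. The absence in ABCA1 is therefore not shared by the LXR-type genes. A match describes the letters of the window and shows no binding in these cells.

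Around these members, 62 other sterol and lipid genes were looked at from a list, of which 57 passed the filter. In the same limma fit 1 of the 57 was called higher and 1 lower, where 2.04% and 2.11% of all genes tested were. The median log2 fold change of the 57 was 0.052. LRP1, a large endocytic receptor for lipoproteins and other ligands (chromosome 12), was at 12.7 and 15.5 FPKM in Control and rose to 25.8 and 28.9 FPKM in HAND1_OE (log2 fold change 0.91, standard error 0.169, adjusted p = 0.0497). CAV1, the sterol-binding coat protein of caveolae (chromosome 7), was at 3.98 and 5.15 FPKM in Control and fell to 0.952 and 1.30 FPKM in HAND1_OE (log2 fold change -1.38, standard error 0.215, adjusted p = 0.0326). Its HAND1_OE values lie near the filter of 1 FPKM, and CAV1 was not tested where every library had to reach it. Both genes had groups that did not overlap, as had 46.3% of all genes tested. This restates the values behind their calls and adds nothing to them. LRP1 did not pass with a pseudocount of 0.1 (adjusted p = 0.0549), without the mean-variance trend (0.0633), with all genes above 0 tested (0.197) or without any 1 library (0.0757 to 0.209). CAV1 did not pass with all genes above 0 tested (0.200) or without Control replicate 1 (0.0618), Control replicate 2 (0.120) or HAND1_OE replicate 1 (0.0620). LRP1 is also known from mesenchymal cells, and of the 7 mesenchyme and stroma markers that passed the filter 3 (PDGFRB, LUM and POSTN) were called higher, against 2.04% of all genes, and 0 lower. COL1A1 and COL1A2 went the other way without a call, with log2 fold changes of -0.23 and -0.82 and HAND1_OE libraries below Control in both. The summed level of the 7 with DCN, which did not pass the filter, was 349 to 431 FPKM in Control and 501 to 561 FPKM in HAND1_OE. The part of this in the LRP1 values was not tested.

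In the rest of that list no gene was called. Among other synthesis and branch genes the largest difference was that of ACAT1, the mitochondrial thiolase (log2 fold change 0.54, limma adjusted p = 0.427). Among efflux and oxysterol genes it was that of ABCA7, a relative of ABCA1, at 25.9 and 30.3 FPKM in Control, against 16.9 and 16.2 FPKM in HAND1_OE (-0.73, adjusted p = 0.0727). Among fatty acid genes it was that of ME1, malic enzyme, at 3.16 and 4.25 FPKM in Control, against 7.43 and 8.76 FPKM in HAND1_OE (0.96, adjusted p = 0.0689). SCARB1, a lipoprotein receptor named after its values were seen, was at 25.5 and 25.1 FPKM in Control, against 15.8 and 15.0 FPKM in HAND1_OE (-0.68, adjusted p = 0.0674). ABCA7, ME1 and SCARB1 were named for their changes, and none passed over all genes tested. Their groups did not overlap, as in 46.3% of all genes tested.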

How the data were processed

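The labels place 2 Control and 2 HAND1_OE libraries, prepared with the TruSeq RNA kit, in their groups by title. The authors deposited 1 table of 58365 rows whose unit is unstated and was taken as FPKM, the unit the study plots. The submitters' processing notes name BWA, Bowtie, RSEM and hg19, with no role or version, but row coordinates match GRCh38 (55646 of 55723 shared GENCODE 29 genes, starts counted from 0 and printed from 1). Y copies of pseudoautosomal genes (45 rows) and repeated gene IDs (91 rows) were left out. FPKM summed to 536284 to 606609 per library. Steps of low single-exon genes gave depths of 0.979 to 1.18 relative to Control replicate 1, but reads behind a value are unknown, so no counting interval is given.

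Genes reaching 1 FPKM in 2 or more libraries were tested on log2(FPKM + 1) by limma 3.58.1, run in R 4.3.3 with its trend option, two-sided and Benjamini-Hochberg adjusted over all genes tested. The code was tested on simulated data. Strand use in counting is not given in the sources used here, and 8 members share exonic bases with another tested gene (7 with a gene on the opposite strand). Members and lists were chosen with earlier results of these data known. All members are named. Of the other lists, called genes and otherwise genes with the largest change in a subgroup are named. The gene of 1 subgroup is not reported here. Alternatives were another pseudocount, other filters, quantile and median-ratio scaling, no trend, a replicate block, each library left out and a 2-fold threshold. Protein-coding genes alone was added after seeing the data.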

Additional observations from a re-analysis of the deposited data

How the results depend on the processing

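In every setting tried, 0 of the 30 members were called in limma in either direction, and the smallest adjusted p was 0.0518, for SC5D with the replicate block. With all 29860 genes above 0 tested, the log2 fold change of HAND1 was 5.20 with an adjusted p = 0.153, and 0 genes were called higher and 0 lower, also 0 and 0 among the other sterol and lipid genes. Those, 1 higher and 1 lower as reported, were 0 higher with a pseudocount of 0.1, without the trend and with a fold change of at least 2. They were 0 lower with 1 FPKM in every library, where CAV1 was not tested. They were 2 higher after quantile normalization, and 2 higher and 2 lower with protein-coding genes alone. Leaving out 1 library gave 0 to 0 of them higher and 0 to 1 lower, and 134 to 266 of all genes higher and 137 to 309 lower.

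The deviations of same-numbered libraries from their group means correlated across genes (r = 0.38), but with 2 pairs and no such label the numbers were not taken as a pairing. The replicate block raised the calls to 597 higher and 712 lower over all genes, and to 2 and 3 among the other sterol and lipid genes. It gave 0 calls among the members.

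Signs near 0 turned. SQLE was at 0.024 and ABCG1 at 0.099 after quantile normalization, and at 0.073 and 0.053 after median-ratio scaling. With 1 library left out, log2 fold changes ran from -0.20 to 0.49 for ABCA1, -0.39 to 0.37 for ABCG1, -0.020 to 0.49 for DHCR7, -0.098 to 0.10 for FASN, -0.0096 to 0.19 for FDPS, -0.33 to 0.078 for HSD17B7, -0.039 to 0.48 for INSIG1, -0.22 to 0.24 for PMVK, -0.16 to 0.38 for SCD, -0.086 to 0.073 for SQLE and -0.16 to 0.37 for STARD4. A lone library was taken to vary like the other group. The cause of these changes was not tested. No count test was run on these FPKM.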
